A study of Mus musculus with 3 samples.

Results

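The TRAV4 genes are a family of related V segments of the T cell receptor (TCR) alpha locus. They were followed in single-cell TCR sequencing (scTCR-Seq) data from CD45+ cells of infiltrated sciatic nerves, where every productive TCR alpha (TRA) chain with a V gene named TRAV4 was a member. The members were 285 of 5745 productive TRA contigs, assembled chains of 1 cell each. They made up 172 of 3325 rearrangements, counting each combination of V gene, J gene and CDR3 base sequence once per library, and lay in 283 of 5269 cells with a productive TRA.

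All mice were neuropathic and carried the genotype NOD.AireGW/+, that is 1 mutant copy of Aire on the autoimmune-prone NOD background. Aire drives the display of peripheral self-antigens in the thymus, where T cells that bind them strongly are removed, and it is the whole animal that carries the allele. There was 1 condition, with no control nerve, and 3 libraries from 4 mice: replicates 1 and 2 came from 1 mouse each, and replicate 3 pooled 2 mice, which cannot be told apart. No age was given in the labels. The libraries had 2374, 3555 and 705 cells with a productive chain, and 34630, 41338 and 5142 UMIs (molecules counted by their tags) on those chains, so replicate 3 is the least precise.

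A TCR alpha chain is built in the thymus by joining 1 of many V segments to 1 of many J segments, with bases trimmed and added at the joint. The V segment encodes the loops CDR1 and CDR2, which commonly touch the MHC molecule, while CDR3 spans the joint and commonly touches the peptide. In mice the central part of the V cluster was duplicated, which gave near-identical copies marked D and N. TRA rearrangement can be repeated on an allele, where each round replaces the earlier joint with one that uses a V segment farther from the J cluster and a J segment deeper in it. Both alleles can rearrange, so a cell can carry a second TRA.

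The copy names used were 3, TRAV4-2, TRAV4-3 and TRAV4D-4. In GRCm38 (the build named mm10) all 3 lie on the plus strand of chromosome 14, TRAV4D-4 at 52990866 to 52991389, TRAV4-2 at 53418349 to 53418873 and TRAV4-3 at 53598828 to 53599410. Each has 2 exons, and the V region read here lies within exon 2. The reference holds 9 TRAV4 copies in all. Of the other 6, TRAV4-1 and TRAV4D-2 are annotated as pseudogenes, and TRAV4D-3, TRAV4N-3, TRAV4N-4 and TRAV4-4-DV10 named no contig in any library.

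The V regions the cells transcribed are shown because they define the copies, and because 1 name covered more than 1 sequence. They run from framework 1 to the base before the CDR3, 258 bases or 86 residues, with CDR1 and then CDR2 in capitals. They come from the deposited contigs of replicates 2 and 3, since the annotation used for replicate 1 holds no V region sequence.
TRAV4-2: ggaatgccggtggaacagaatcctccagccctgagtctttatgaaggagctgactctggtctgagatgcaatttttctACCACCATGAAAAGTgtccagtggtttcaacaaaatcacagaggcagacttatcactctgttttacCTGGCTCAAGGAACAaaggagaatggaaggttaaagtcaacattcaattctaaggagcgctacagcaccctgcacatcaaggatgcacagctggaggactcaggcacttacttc
TRAV4-3 form 1: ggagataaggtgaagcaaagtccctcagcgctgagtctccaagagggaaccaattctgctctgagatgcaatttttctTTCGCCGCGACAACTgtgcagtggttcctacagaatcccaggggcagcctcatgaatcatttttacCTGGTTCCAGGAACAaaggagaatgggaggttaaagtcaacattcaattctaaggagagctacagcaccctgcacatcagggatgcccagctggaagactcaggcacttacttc
TRAV4-3 form 2: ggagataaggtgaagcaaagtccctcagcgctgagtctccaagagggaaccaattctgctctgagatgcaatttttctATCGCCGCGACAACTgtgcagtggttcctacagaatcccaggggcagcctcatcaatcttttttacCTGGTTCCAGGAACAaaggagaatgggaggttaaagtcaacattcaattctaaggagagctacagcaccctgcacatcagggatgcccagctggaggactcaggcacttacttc
TRAV4D-4: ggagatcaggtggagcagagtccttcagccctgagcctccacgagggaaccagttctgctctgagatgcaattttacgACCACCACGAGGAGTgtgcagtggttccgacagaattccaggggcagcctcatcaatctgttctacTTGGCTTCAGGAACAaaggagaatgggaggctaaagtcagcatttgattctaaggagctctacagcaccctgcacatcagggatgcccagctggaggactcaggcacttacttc

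TRAV4-2 encoded the CDR1 TTMKS and the CDR2 LAQGT, and its sequence stood in all 53 TRAV4-2 contigs of the 2 libraries. It differed from GRCm38 TRAV4-2 (53418603 to 53418860) at 2 bases, G54C and G91A, with the reference base first and positions counted from the first base printed. TRAV4D-4 encoded TTTRS and LASGT in all 15 contigs. It differed from GRCm38 TRAV4D-4 (52991119 to 52991376) at 7 bases and was equally near to TRAV4N-4, so its deposited name does not settle which copy was used.

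TRAV4-3 held 2 V regions. Form 1 had CDR1 FAATT in 66 contigs and 39 rearrangements, and form 2 had CDR1 IAATT in 24 contigs and 18 rearrangements. Both had the CDR2 LVPGT. From form 2 to form 1 the differences were A79T, C132G, T137A and G240A, which change 3 residues, I27F in CDR1 and I44M and L46H in framework 2. Each form was found in both libraries, form 1 in 27 and 12 rearrangements of replicates 2 and 3 and form 2 in 14 and 4. Form 1 differed from GRCm38 TRAV4-3 (53599140 to 53599397) at 8 bases and form 2 at 4. Form 1 was nearly as near to TRAV4D-3 and TRAV4N-3, at 9 bases each, while form 2 differed from both at 7 bases. Which copy form 1 came from was not tested. A single further contig, of 1 UMI in replicate 3, had CDR1 IAATA and differed from form 2 by 1 base. The mice are NOD and the reference is another strain, and whether the forms are 2 alleles or 2 gene copies was not tested. More than 1 V region under 1 name was not particular to TRAV4-3, as 13 of 54 V gene names with at least 10 contigs (24.1%) held at least 2.

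The share of TRA rearrangements that used TRAV4 was 5.69% in replicate 1 (70 of 1231, exact 95% interval 4.46 to 7.13%), 4.65% in replicate 2 (79 of 1700, 3.70 to 5.76%) and 5.84% in replicate 3 (23 of 394, 3.74 to 8.63%). The 3 intervals overlapped, a difference between libraries was not tested, and the mean was 5.39% ± 0.648 (SD, n = 3 libraries). This put TRAV4 in place 8 of 19 TRAV families by mean share, just above TRAV8 at 5.31%, where TRAV6 led with 15.5%. By cell the shares were 6.28% (125 of 1989, 5.26 to 7.44%), 4.51% (127 of 2819, 3.77 to 5.34%) and 6.72% (31 of 461, 4.61 to 9.41%), with a mean of 5.84% ± 1.18 (SD, n = 3). Intervals cover counting error only. TRAV4 chains had a median of 6, 4 and 3 UMIs in replicates 1 to 3, against 5, 3 and 3 for other TRAs.

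TRAV4-3 was the most used copy name in each library. It made up 48 of 70, 41 of 79 and 17 of 23 TRAV4 rearrangements (68.6, 51.9 and 73.9%), and 76.0, 52.8 and 77.4% of TRAV4 cells. TRAV4-2 took 19, 33 and 4 rearrangements (27.1, 41.8 and 17.4%). Counted by V region, TRAV4-2 led in replicate 2, with 33 against 27 for TRAV4-3 form 1 and 14 for form 2. In replicate 3 form 1 led, with 12 against 4 for TRAV4-2. TRAV4D-4, the copy farthest from the J cluster of the 3 used, took 3, 5 and 2 (4.29, 6.33 and 8.70%). The interval of TRAV4-2 in replicate 2 (30.8 to 53.4%) overlapped those of replicate 1 (17.2 to 39.1%) and replicate 3 (4.95 to 38.8%), and the difference between libraries was not tested. In replicate 2 the same junction appeared under 2 copy names, TRAV4-2 and TRAV4-3, in 2 cases. The contigs under each name held the V region of that name. The TRAV4-2 V region differs from those of TRAV4-3 at 47 (form 1) or 43 (form 2) of 258 bases, so the names were not exchanged in these cases.

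**Figure D1:**
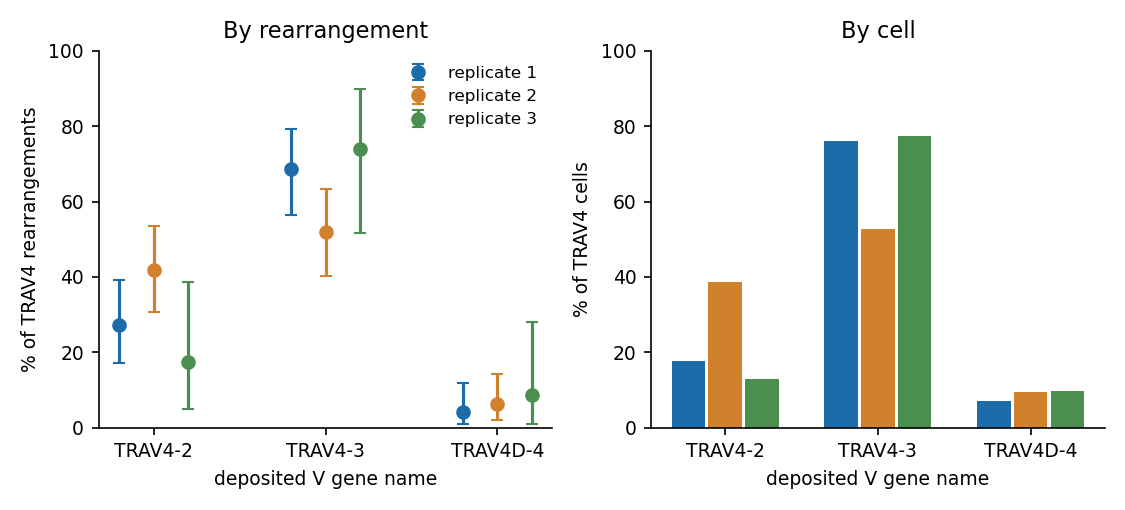
Use of the 3 TRAV4 copy names in each library, as percent of TRAV4 rearrangements (left, points with exact 95% intervals) and as percent of TRAV4 cells (right, bars). TRAV4-3 is highest in every library, from 51.9 to 73.9% of rearrangements, and TRAV4D-4 lowest, from 4.29 to 8.70%.

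Most TRAV4 rearrangements were seen in 1 cell, 124 of 172, and 48 were expanded, that is found in 2 or more cells of a library. Below, a clone is the set of cells of a library with 1 TRA rearrangement. The TRB was not used for this, so the cells of a clone need not share an origin. In replicate 1, 27.1% of TRAV4 rearrangements were expanded against 21.4% of other TRAs, in replicate 2, 32.9% against 22.9%, and in replicate 3, 13.0% against 14.3%. TRAV4 was thus higher in 2 libraries and lower in the third, by 4.83 percentage points ± 5.66 on average (SD, n = 3 libraries; exact two-sided sign-flip permutation test, p = 0.5, and 0.5 after Benjamini-Hochberg adjustment over 8 comparisons). With 3 libraries this test cannot go below 0.25. Of 14 TRAV families with at least 5 rearrangements in each library, 7.14% had a higher expanded share than the other TRAs in all 3, and TRAV4 was not among them. This depended on replicate 3, with 23 TRAV4 rearrangements. With V copies merged by family TRAV4 stayed lower there, by -1.24 percentage points (5.69 on average). How many families were higher in all 3 libraries was not computed for the alternatives given next. TRAV4 was higher in all 3 libraries with chains of at least 3 UMIs (8.12 percentage points on average, 11.2 in replicate 3), in cells with 1 TRA and 1 TRB (6.27, and 2.26 in replicate 3) and with expansion counted from 3 cells (2.97, and 6.0 in replicate 3), each with an exact p of 0.25.

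By copy, TRAV4D-4 had 24 cells on 10 rearrangements, or 2.40 cells per rearrangement, TRAV4-3 186 on 106 (1.75) and TRAV4-2 75 on 56 (1.34). Expanded rearrangements of TRAV4D-4 numbered 1 of 3, 3 of 5 and 1 of 2 in replicates 1 to 3, those of TRAV4-3 15 of 48, 12 of 41 and 2 of 17, and those of TRAV4-2 3 of 19, 11 of 33 and 0 of 4. In the edgeR quasi-likelihood fit over 55 TRAV genes, which compared expanded with single-cell rearrangements, the log2 ratio was 1.81 ± 0.89 (SE) for TRAV4D-4, 0.48 ± 0.35 for TRAV4-3 and 0.22 ± 0.52 for TRAV4-2. None of these passed, with edgeR adjusted p of 0.843, 0.843 and 0.896, and no TRAV gene did (0 of 55, 0.0%). At an unadjusted p under 0.05 edgeR called 2 genes (3.64%), TRAV4D-4 (unadjusted edgeR p of 0.0423) and, named after its value was seen, TRAV13-4-DV7, while DESeq2 called 0 adjusted and 1 unadjusted.

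The largest TRAV4 clones were small shares of each library. In the junctions printed here, which show how close the expanded clones were to germline, capitals mark bases that match neither the V end nor the J segment.
Replicate 1, TRAV4-3 with TRAJ43, 14 cells: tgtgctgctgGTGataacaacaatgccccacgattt
Replicate 1, TRAV4-3 with TRAJ39, 11 cells: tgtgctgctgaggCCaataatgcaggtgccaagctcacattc
Replicate 1, TRAV4D-4 with TRAJ18, 7 cells: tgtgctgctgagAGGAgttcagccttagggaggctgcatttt
Replicate 2, TRAV4-3 with TRAJ22, 7 cells: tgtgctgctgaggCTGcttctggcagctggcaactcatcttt
Replicate 2, TRAV4-3 with TRAJ53, 6 cells: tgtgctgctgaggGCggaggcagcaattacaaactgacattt
Replicate 2, TRAV4-3 with TRAJ23, 5 cells: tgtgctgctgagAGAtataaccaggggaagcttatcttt
Replicate 3, TRAV4-3 with TRAJ21, 6 cells: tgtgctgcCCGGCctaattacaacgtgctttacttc
Replicate 3, TRAV4-3 with TRAJ15, 3 cells: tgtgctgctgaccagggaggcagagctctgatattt
Replicate 3, TRAV4D-4 with TRAJ22, 2 cells: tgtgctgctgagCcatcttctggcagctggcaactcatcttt

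The largest, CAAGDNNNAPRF of replicate 1, held 0.704% of that library's cells with a TRA (interval 0.385 to 1.18%) and paired with 1 TRBV12-1 beta chain (TRB) that used TRBJ2-1 in 12 of its 14 cells. The next, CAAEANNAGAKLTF, had TRBV13-1 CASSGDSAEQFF in 8 of 11 cells. The TRAV4D-4 clone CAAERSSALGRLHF uses TRAJ18, as iNKT receptors do, but with another V gene, and 6 of its 7 cells had TRBV16 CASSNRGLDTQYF. In replicate 2, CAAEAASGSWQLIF (form 1, 7 cells) paired with TRBV12-2 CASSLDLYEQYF in 5 cells, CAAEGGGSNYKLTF (form 2, 6 cells) with TRBV16 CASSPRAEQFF in 6, and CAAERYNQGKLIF (form 1, 5 cells) with TRBV16 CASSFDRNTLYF in 5. In replicate 3, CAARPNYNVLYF (form 1, 6 cells) held 1.30% of cells with a TRA (0.479 to 2.81%) and paired with 1 TRBV29 TRB that used TRBJ2-2 in 5. These 9 junctions had from 0 to 5 bases that match no germline segment. They carried TRAV4-3, in both forms, or TRAV4D-4, and none carried TRAV4-2, whose largest clones held 2, 3 and 1 cells.

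**Figure D2:**
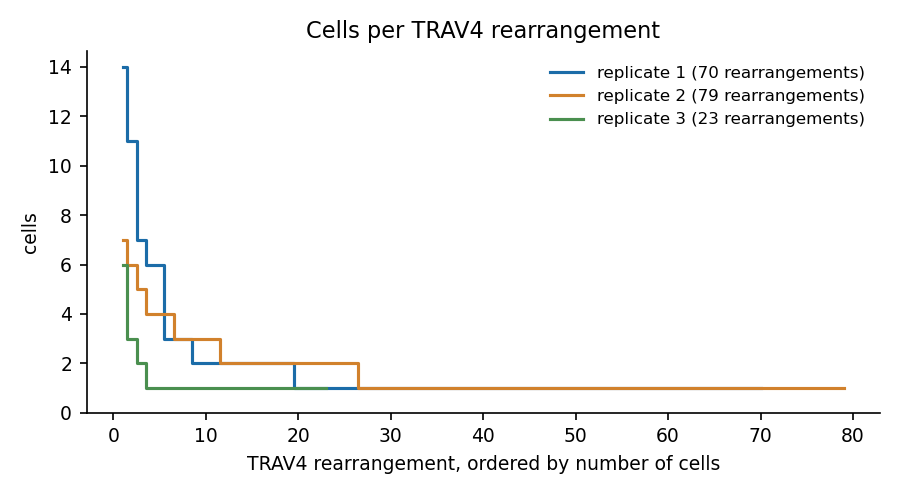
Number of cells of each TRAV4 rearrangement (y axis), ordered by size within a library (x axis, 1 line per library). The largest clones hold 14, 7 and 6 cells in replicates 1 to 3, and most rearrangements lie at 1 cell.

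Each of the 3 copy names ends in the bases tgtgctgctgagg in these libraries, where the first codon encodes the conserved cysteine of the CDR3 and the fourth a glutamate, which is acidic. GRCm38 gives TRAV4-2 the end tgtgctgttgagg instead. Accordingly 109 of 172 TRAV4 rearrangements (63.4%) began with CAAE, in 62.9, 64.6 and 60.9% of replicates 1 to 3, against 0.0317% of other TRAs. At position 4, counted from the cysteine, an acidic residue stood in 72.9, 69.6 and 65.2% of TRAV4 rearrangements and in 9.91, 10.2 and 8.63% of the others. Apart from glutamate, position 4 held mainly glycine, in 15 rearrangements, and aspartate, in 12. Since the V gene name chose the members, this germline-encoded start is a description of them.

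The mean net charge of the TRAV4 CDR3, counting lysine and arginine as +1 and aspartate and glutamate as -1, was 0.200, 0.139 and -0.0435 in replicates 1 to 3, against 0.770, 0.776 and 0.728 for other TRAs, a mean difference of -0.659 ± 0.102 (SD, n = 3; exact sign-flip permutation test, p = 0.25, adjusted p = 0.4). The values did not overlap between TRAV4 and other TRAs, and TRAV4 was lower in 3 of 3 libraries, as were 28.6% of the 14 families. Its mean difference was the lowest of the 14. In replicates 1 and 2, however, TRAV15, a family with 30 rearrangements in all, had a lower difference, at -1.08 and -0.915 (0.321 in replicate 3). This count includes position 4, where the V end of the members encodes glutamate. The charge difference, its test and its rank are therefore a description of the members. With the first 4 positions left out, an alternative chosen after seeing the data, the difference turned to 0.0924 ± 0.146. It was then higher in 2 libraries and lower in replicate 3 (exact sign-flip permutation test, p = 0.5).

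The mean CDR3 length of TRAV4 differed from that of other TRAs by -0.492 ± 0.128 residues (SD, n = 3; exact sign-flip permutation test, p = 0.25, adjusted p = 0.4). Their mean lengths were 13.2, 13.1 and 13.1 residues against 13.6, 13.6 and 13.6, with a range of 10 to 17 residues. They were lower in 3 of 3 libraries, as in 35.7% of families, and TRAV8 was the 1 family with a larger shortfall (-0.511). The mean Kyte-Doolittle hydropathy of positions 6 and 7 was -1.18, -1.28 and -1.13 against -1.30, -1.33 and -1.34. TRAV4 was higher in 3 of 3 libraries, as in 28.6% of families, by 0.130 ± 0.0854 (exact p = 0.25, adjusted p = 0.4), but weighted by cells the difference became -0.0915.

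Junctions of TRAV4 had on average 3.71, 3.96 and 3.43 non-germline bases in replicates 1 to 3, against 4.54, 4.85 and 4.29 in other TRAs, when V ends were taken as most rearrangements hold them. This setting was chosen after seeing the data, because the GRCm38 end of TRAV4-2 differs from that in these mice. The change was partial, as it covered only the first bases of V ends and left out rarely used V names. Later V bases and all J segments stayed as in GRCm38, so any strain difference there still counts as non-germline. The difference was -0.857 ± 0.0320 (SD, n = 3; exact sign-flip permutation test, p = 0.25), lower in 3 of 3 libraries, as in 35.7% of families. With the GRCm38 ends it was -0.357 ± 0.480 (exact p = 0.5, adjusted p = 0.5), and replicate 2 was higher by 0.161. With the libraries' V ends, 31 of 172 TRAV4 junctions (18.0%) had no non-germline base, 20.0, 16.5 and 17.4% by library, against 11.2, 9.62 and 11.1% of other TRAs.

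**Figure D3:**
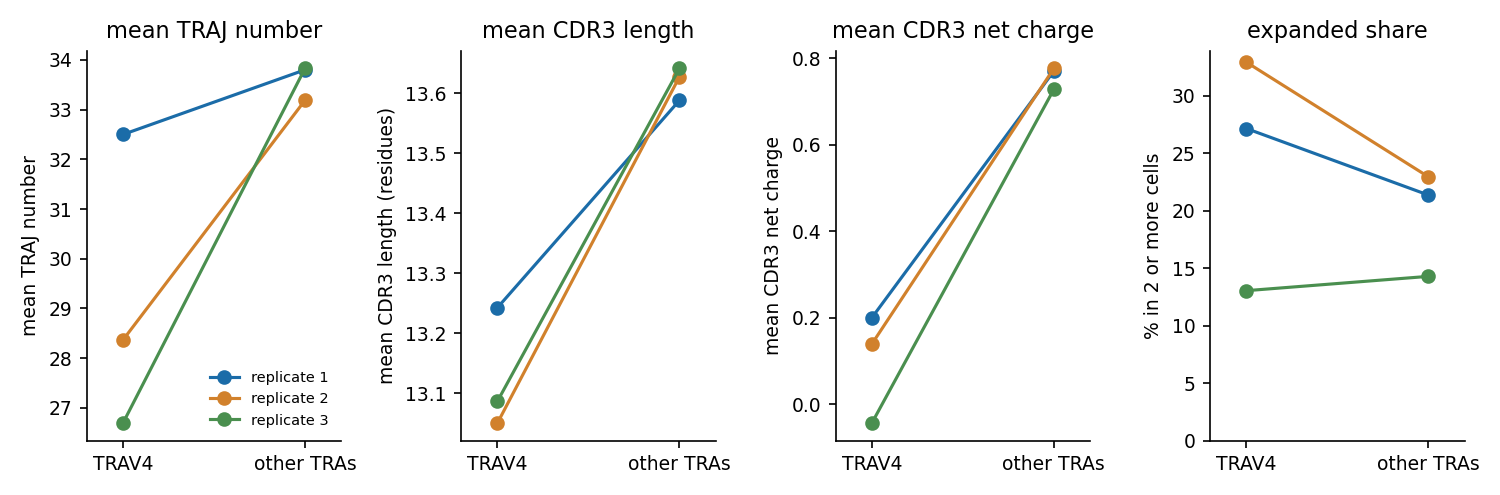
Mean TRAJ number, mean CDR3 length in residues, mean CDR3 net charge and percent of rearrangements in 2 or more cells, for TRAV4 and other TRAs, with 1 line per library (the first 3 y axes do not start at 0). TRAV4 lies below the other TRAs in all 3 libraries for the first 3 measures, while the expanded share is higher in replicates 1 and 2 and lower in replicate 3.

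TRAV4 was joined to 38 of 42 TRAJ genes. TRAJ numbers fall from the V side to the C side of the cluster, so a low number is a J segment far from the V cluster. The mean TRAJ number of TRAV4 was 32.5, 28.4 and 26.7 in replicates 1 to 3, against 33.8, 33.2 and 33.8 in other TRAs. The mean difference was -4.42 ± 2.94, towards segments deeper in the cluster (SD, n = 3; exact sign-flip permutation test, p = 0.25, adjusted p = 0.4). It was lower in 3 of 3 libraries, as in 28.6% of families, and its mean difference was the lowest of the 14, before TRAV10 (-3.29) and TRAV7 (-3.15), while TRAV21 was highest (14.9). Whether TRAV4 differs from TRAV10 or TRAV7 was not tested. The order differed between libraries, as 6 families, TRAV12 (-5.09) lowest among them, lay below TRAV4 (-1.30) in replicate 1, none in replicate 2 and TRAV15 in replicate 3. In replicate 1 the TRAV4 difference was 2.14, towards the V side, when weighted by cells, and 0.244 in cells with 1 TRA and 1 TRB, and the exact p was then 0.5 in each case. In replicate 2 the 14 rearrangements of TRAV4-3 form 2 had a mean TRAJ number of 21.7 and the 27 of form 1 one of 32.5, and in replicate 3 the values were 25.8 for 4 and 27.9 for 12, differences that were seen after the fact and not tested.

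TRAJ9 was the segment most used by TRAV4, in 12 rearrangements. It took 5, 6 and 1 TRAV4 rearrangements, or 7.14, 7.59 and 4.35%, against 1.81, 1.67 and 1.62% of other TRAs, and so was higher in all 3 libraries, as were 7.14% of the 42 TRAJ genes tested. TRAJ9 lies at chromosome 14, 54209393 to 54209450, near the C end of the cluster. Its log2 ratio of TRAV4 to other TRAs was 2.00 ± 0.73 (SE), with an unadjusted edgeR p of 0.00596 and an adjusted p of 0.25, so it did not pass. TRAJ43 (54174742 to 54174798) took 7, 4 and 0 (10.0, 5.06 and 0.0%, against 2.07, 2.96 and 2.16%), with a log2 ratio of 1.35 ± 0.64 (edgeR adjusted p = 0.571) that became 0.49 without replicate 1. TRAJ22 took 3, 3 and 3 (4.29, 3.80 and 13.0%, against 2.50, 2.71 and 1.35%), with 1.10 ± 0.70 (edgeR adjusted p = 0.744), or from 0.62 without replicate 3 to 1.58 without replicate 2. TRAJ40 (11 rearrangements) and TRAJ27 (8) had log2 ratios of 0.47 ± 0.51 and 0.47 ± 0.64, the first 0.12 without replicate 1 and the second from 0.18 without replicate 1 to 1.01 without replicate 2. No TRAJ gene passed the edgeR test (0 of 42, 0.0%). At an unadjusted p under 0.05 edgeR called 3 (7.14%), TRAJ9, TRAJ43 and, named after its value was seen, TRAJ49, which was in 0, 2 and 0 TRAV4 rearrangements (log2 ratio -1.87), while DESeq2 called 0 adjusted and 3 unadjusted. With 172 rearrangements spread over 38 segments, the counts behind each ratio were small.

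**Figure D4:**
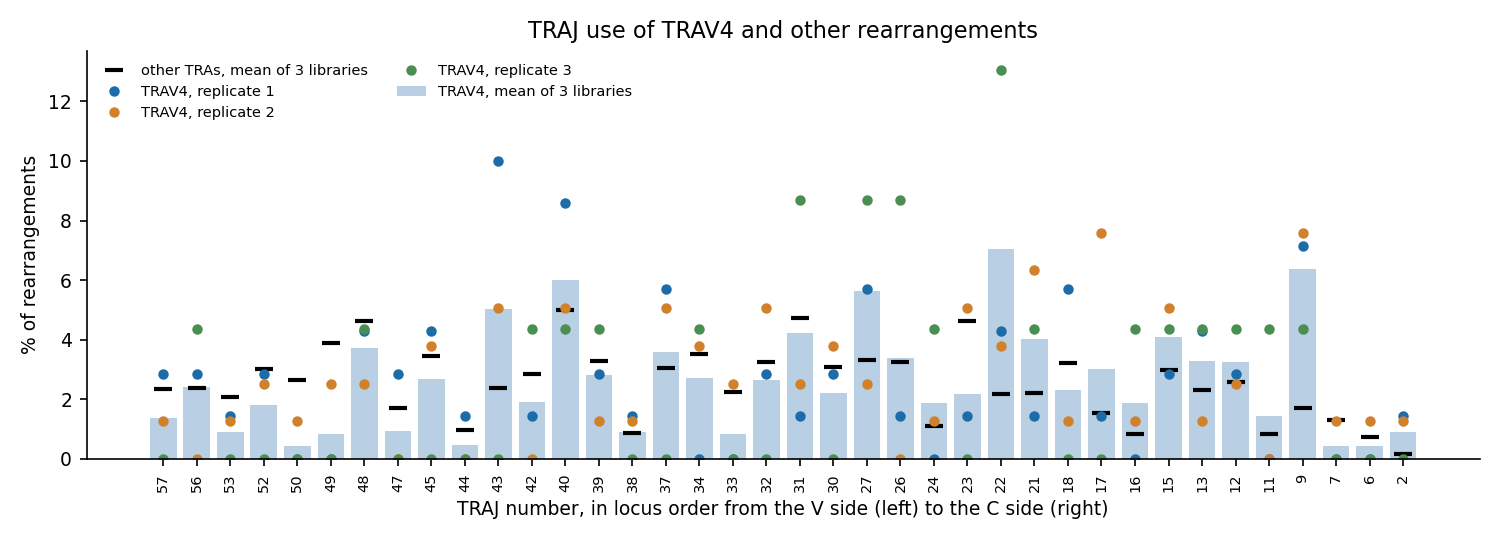
Percent of rearrangements that used each of the 38 TRAJ genes found with TRAV4, in locus order from the V side (left) to the C side (right). Bars are the TRAV4 mean of 3 libraries, points its libraries and dashes the mean of other TRAs, and TRAJ9 stands at 7.14, 7.59 and 4.35% against 1.81, 1.67 and 1.62%.

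The families whose TRAJ profile was most like that of TRAV4 were TRAV7, TRAV9 and TRAV6. Their overlap, the sum of the smaller share over TRAJ genes, was 76.7, 72.0 and 70.8%, on 42 TRAJ genes and means of the same 3 libraries. These are large families, with 376, 316 and 519 rearrangements, and the lowest overlaps, 38.2 to 46.3%, were with TRAV15, TRAV21, TRAV17 and TRAV1, which had 30 to 103. The part of family size in this order was not tested.

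**Figure D5:**
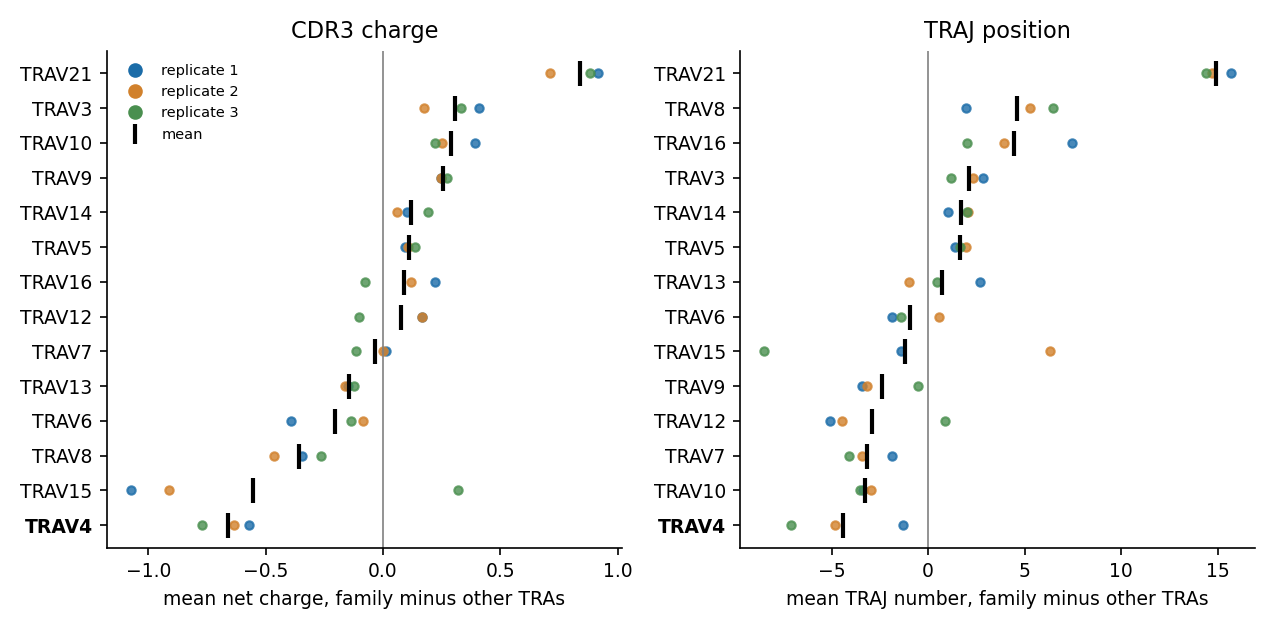
Mean CDR3 net charge (left) and mean TRAJ number (right) of each of 14 TRAV families minus the other TRAs, with 1 point per library and the mean as a bar. TRAV4, in bold, has the lowest mean difference on both, -0.659 and -4.42, though not the lowest point in each library. The charge includes position 4, where the V end of TRAV4 encodes glutamate. TRAV15 lies below it for charge in replicates 1 and 2, and 6 families lie below it for TRAJ number in replicate 1.

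TRAV4 cells with 1 TRA and 1 TRB gave 54, 65 and 21 distinct pairs in replicates 1 to 3. The leading partner name was TRBV12-2+TRBV13-2, a composite name given to some chains, in 9, 11 and 5 pairs. These were 16.7, 16.9 and 23.8% of TRAV4 pairs against 9.13, 10.8 and 10.8% of other pairs, higher in all 3 libraries, as were 10.0% of the 20 TRBV genes tested. Its log2 ratio was 0.81 ± 0.33 (SE), with an unadjusted edgeR p of 0.0129 and an adjusted p of 0.206, so it did not pass. Without the TRA described next it was 0.61 (edgeR adjusted p = 0.783), an alternative chosen after seeing the data. In replicate 1 the same TRB junction, printed further on, stood under both this name and plain TRBV13-2. Plain TRBV13-2 was in 4 TRAV4 pairs, 1.85, 3.08 and 4.76% against 5.37, 4.56 and 5.76% of other pairs, and so was lower in all 3 libraries. With both names counted as 1, also chosen after seeing the data, the shares were 17.0, 18.8 and 28.6% against 12.6, 14.1 and 16.3%, with a log2 ratio of 0.49 ± 0.30 (SE; edgeR adjusted p = 0.967). TRBV13-1 (13 pairs), TRBV16 (13), TRBV13-3 (12) and TRBV31 (12) followed, with log2 ratios of 0.10, 0.39, 0.19 and 0.76 and edgeR adjusted p of 0.969 each. The ratio of TRBV16 became 0.060 without replicate 1. No TRBV gene passed (0 of 20, 0.0%). Unadjusted, edgeR called 2 (10.0%), the composite name and, named after its value was seen, TRBV5 (7 pairs, log2 ratio -1.12), and DESeq2 called 0 adjusted and 0 unadjusted.

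TRAs were matched between libraries by V family, amino acid CDR3 and TRAJ, so the copies of a family were not told apart. By this, 6 TRAV4 TRAs were found in more than 1 library, or 3.75% of 160 distinct ones, against 105 of 2971 other TRAs (3.53%). One of them, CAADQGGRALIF with TRAV4-3 and TRAJ15, was found in all 3 libraries (0.625% of TRAV4 TRAs against 12, or 0.404%, of the others). It had 3, 4 and 3 cells and 2 to 30 UMIs per cell. Its V region was form 1 in replicates 2 and 3. The sequences of this TRA and of its TRB partners are shown because the same alpha CDR3 stood beside a similar TRB CDR3 in each library. In the TRA, capitals mark the non-germline bases, and the TRB sequences are printed without capitals.
TRA, all 3 libraries: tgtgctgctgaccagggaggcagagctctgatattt
TRA, replicate 1 only: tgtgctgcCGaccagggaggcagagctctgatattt
TRB, replicate 1, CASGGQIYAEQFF: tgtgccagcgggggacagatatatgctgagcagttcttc
TRB, replicate 1, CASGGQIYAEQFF, with the second TRA: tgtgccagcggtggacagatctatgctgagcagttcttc
TRB, replicate 2, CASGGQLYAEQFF: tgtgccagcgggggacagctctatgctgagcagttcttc
TRB, replicate 3, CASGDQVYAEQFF: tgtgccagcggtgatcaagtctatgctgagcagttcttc

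The TRA found in each library had 0 bases that match no germline segment, and replicate 1 also held a second nucleotide form with 2 such bases, which encodes the same CDR3. Of the 10 cells, 9 had a TRB, and all 9 joined a V gene named TRBV13-2 or TRBV12-2+TRBV13-2 to TRBJ2-1 with a CDR3 of 13 residues. The 4 TRB sequences differed from each other, none was in 2 libraries, and none of the 10 barcodes was used in another library. The TRBs of different libraries were thus different rearrangements. In replicate 1 both the TRA and the TRB came in 2 nucleotide forms with the same amino acids. The tenth cell, in replicate 2, had no TRB.

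The TRB CDR3s of these cells share the form CASG, 3 residues of any kind, YAEQFF. This form was chosen after their values were seen, so what follows is a description with no test. All 12 cells of the 3 libraries with such a TRB had a TRAV4 TRA, of which replicates 1 to 3 gave 3, 5 and 4. Apart from the 9 above, 2 cells of replicate 2 had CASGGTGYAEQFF with TRAV4-2, TRAJ40 and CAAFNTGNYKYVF, and 1 cell of replicate 3 had TRBV13-3 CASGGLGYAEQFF with TRAV4-2, TRAJ34 and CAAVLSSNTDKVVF. Wider TRB groups had lower shares with TRAV4 when cells with a TRA were pooled over the 3 libraries. Each group also holds the same 9 cells, from which the form was read. The shares therefore cannot show how often this form goes with TRAV4. The share was 15 of 43 (34.9%) for any TRB of 13 residues ending in YAEQFF, 17 of 88 (19.3%) for any of 13 residues starting with CASG and 12 of 69 (17.4%) for CASG to YAEQFF of any length. It was 64 of 627 (10.2%) for TRBJ2-1, where replicate 1 gave 35 of the 64 cells (20.0, 5.54 and 12.7% by library), 44 of 652 (6.75%) for any CASG start and 268 of 4891 (5.48%) for all TRBs. These groups are not nested in this order, and the order was not the same within each library. These cells came from 8 TRB rearrangements with 5 distinct CDR3s when each V name was counted apart. The 8 is an upper count, as 1 TRB junction of replicate 1 stood under both TRBV13-2 and TRBV12-2+TRBV13-2. The CDR3 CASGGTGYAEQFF also stood under both names. Cells that descend from 1 cell share a TRB, so the 12 cells are not 12 independent pairings.

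The other TRAV4 TRAs in 2 libraries had different TRBs in each. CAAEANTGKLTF (TRAV4-3, TRAJ27) had 3 cells in replicate 1, with TRBV1 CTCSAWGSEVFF, and 1 in replicate 3, with a TRBV3 chain. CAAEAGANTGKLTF (TRAV4-2, TRAJ52) had 2 cells in replicate 1 with TRBV14 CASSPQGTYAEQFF and 1 in replicate 2 with TRBV10 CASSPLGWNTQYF. Both junctions had 0 non-germline bases. The remaining 3, with TRAJ57, TRAJ9 and TRAJ32, were each in replicates 1 and 2. The TRAJ9 one had TRAV4-2 in replicate 1 and TRAV4-3 in replicate 2. The TRAJ32 one had TRAV4-2 in replicate 1 and TRAV4D-4 in replicate 2, so neither kept its copy name.

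A second productive TRA was found in 17 of 125, 17 of 127 and 1 of 31 TRAV4 cells (13.6, 13.4 and 3.23%), against 9.50, 9.10 and 4.42% of other cells with a TRA. The mean difference was 2.40 percentage points ± 3.11 (SD, n = 3; exact sign-flip permutation test, p = 0.5, adjusted p = 0.5), and 1.46 to 4.19 with a library left out, 4.19 without replicate 3. A cell with several TRAs counts under each family, which raises the share for any family, and 71.4% of families were higher in all 3 libraries while TRAV4 was lower in replicate 3. In 2 cells both TRAs were TRAV4. A TRB was missing in 7, 6 and 2 TRAV4 cells (5.60, 4.72 and 6.45%), against 6.12, 6.98 and 14.2% of the others. TRAV4 was lower in 3 of 3 libraries, as were 35.7% of families, by -3.50 percentage points ± 3.77 (exact p = 0.25, adjusted p = 0.4), and by -5.00 to -1.39 with a library left out, -1.39 without replicate 3.

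Receptors of other T cell types were rare in these libraries. TRAV11 with TRAJ18, the iNKT-type TRA, was in 1, 5 and 1 cells and TRAV1 with TRAJ33, the MAIT-type TRA, in 1, 15 and 1. Libraries shared 7 barcodes between replicates 1 and 2 and 3 between replicates 2 and 3. Of the TRAV4 barcodes, 3 were also used in another library, in 0 cases with the same rearrangement.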

How the data were processed

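CD45+ cells of sciatic nerves were profiled by 10x Genomics scTCR-Seq in 3 libraries of 1 condition. The authors processed reads with Cell Ranger (mm10 and Seurat are also named in the submitters' processing notes); the Cell Ranger version is not given in the sources used here. For each contig they deposited its gene names, its CDR3 and its counts of UMIs and of reads. The table of replicate 1 has 18 columns and those of replicates 2 and 3 have 31. Cell Ranger clonotype and consensus tables were not used.

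Productive TRA and TRB contigs of called cells were kept. Rearrangements, not cells, were counted unless stated. TRAV4 was compared with the other TRAs of the same library by an exact two-sided sign-flip permutation test over libraries. Counts per TRAV, TRAJ and TRBV gene were fitted with edgeR 4.0.16 (quasi-likelihood, library as block, genes with at least 10 counts, Benjamini-Hochberg over all genes tested), with DESeq2 1.42.0 as an alternative. Each SE given with an edgeR ratio was calculated back from the ratio and its p-value, with a normal approximation. The fits and the junction matching were tested on simulated data. Junctions were matched to GRCm38 segments with GENCODE M21. The matching was used for 3108 of 3325 rearrangements, including 172 of 172 of TRAV4. Intervals are exact Clopper-Pearson 95% intervals.

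Named items were the TRAV4 copies, the 5 TRAJ and TRBV genes most used (TRAJ27 and TRAJ37 tied for the fifth TRAJ place with 8 rearrangements each, and the first by name was kept), the 3 largest TRAV4 clones per library and TRAs found in all libraries. The members and lists were chosen with earlier results of these data known. Alternatives were a minimum of 3 UMIs, merged copies, weighting by cells, cells with 1 TRA and 1 TRB, other expansion limits, normalization, filters and blocks, and omitting 1 library at a time. Software was R 4.3.3, matplotlib 3.10.9, Biopython 1.88, pysam 0.24.0, scipy 1.17.1, numpy 2.4.6 and pandas 2.3.3 under Python 3.11.15.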

Additional observations from a re-analysis of the deposited data

Results flagged for a closer look

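Contigs outside the comparisons also carried TRAV4. Called cells held 38, 28 and 11 nonproductive TRAV4 contigs with a TRAJ in replicates 1, 2 and 3, beside 126, 128 and 31 productive ones. Barcodes not called as cells held 299, 51 and 17 productive TRAV4 contigs, with a median of 1, 2 and 1 UMIs. They stand out because these data enter no comparison above and there were no control samples to set them against. In replicate 1, 198 of the 229 TRAV4-3 contigs on such barcodes repeated a rearrangement found in its cells, but 9 of 42 for TRAV4-2 and 13 of 28 for TRAV4D-4. In replicate 2 the counts for TRAV4-2, TRAV4-3 and TRAV4D-4 were 3 of 10, 16 of 37 and 3 of 4. Those of replicate 3 were 0 of 2, 6 of 13 and 2 of 2.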

How the results depend on the processing

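Each of 27 results was recomputed under alternatives, 231 values in all, of which 216 kept their direction and side of the threshold or stayed within the allowed spread. No edgeR or DESeq2 fit over the TRAV, TRAJ or TRBV genes called a gene in any of 33 alternatives, with 0 to 3, 0 to 4 and 0 to 2 genes at an unadjusted p under 0.05. Of the differences over libraries, these turned in direction: CDR3 charge became 0.0924 without positions 1 to 4, and CDR3 hydropathy became -0.0915 weighted by cells. The 6 TRAV4 TRAs in more than 1 library ranged from 1 to 5 when a library was left out, with 1 left without replicate 1 and 2 without replicate 2, since fewer libraries can share fewer TRAs. Leaving out a library moved the difference in expanded share between 2.27 and 7.87 percentage points, 2.27 without replicate 2. It moved that in TRAJ number between -5.98 and -3.06. With the GRCm38 V ends it moved that in non-germline bases between -0.616 and -0.143. The difference with the libraries' V ends (-0.857) was not recomputed in this way. Log2 ratios of genes that failed the test also turned. TRAV4-2 among expanded rearrangements became -0.32 with expansion at 3 or more cells, -0.042 by DESeq2 and ranged from -0.79 to 0.49 with a library left out, lowest without replicate 2. TRAJ40 became -0.011 by DESeq2. TRBV13-1 became -0.040 with at least 3 UMIs, -0.10 with TMM, -0.17 by DESeq2 and from -0.37 (without replicate 2) to 0.36 with a library left out. TRBV13-3 became -0.013 with TMM, -0.11 by DESeq2 and from -0.44 (without replicate 2) to 0.52 with a library left out. The causes were not tested. No paired analysis was possible because the samples form 1 group, so replicate numbers pair it with no other. TRAV4 and other TRAs were compared within each library throughout. Replicate 3, with 23 TRAV4 rearrangements, limits every value over libraries, and 3 libraries cannot give an exact p below 0.25.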
